A study of Mus musculus with 54 samples.

Results

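The expression of 9 genes of fatty acid oxidation and its control by PPAR was followed in 54 mouse libraries. The members were matched by symbol to 1 Ensembl identifier each, and they were 9 of the 54232 genes counted. They comprised 2 transporters of the carnitine shuttle (Cpt1a, ENSMUSG00000024900, and Cpt1b, ENSMUSG00000078937), 4 enzymes of the mitochondrial spiral (Acadm, ENSMUSG00000062908, Acadl, ENSMUSG00000026003, Acadvl, ENSMUSG00000018574, and Hadha, ENSMUSG00000025745) and 3 regulators known as PPAR targets (Pdk4, ENSMUSG00000019577, Ucp3, ENSMUSG00000032942, and Angptl4, ENSMUSG00000002289).

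Long-chain fatty acids enter mitochondria through the carnitine shuttle, whose first step is carnitine palmitoyltransferase 1, and are then shortened by acyl-CoA dehydrogenases of graded chain length and by the trifunctional protein. Fatty acids also bind the nuclear receptors PPAR alpha, delta and gamma, which pair with RXR on DNA and raise the transcription of these genes. The heart draws most of its ATP from fatty acids, the proximal tubule of the kidney relies on them heavily, and the brain mostly burns glucose.

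Messenger RNA was sequenced from heart, kidney and brain of male BL6 mice of about 20 months. They received daily i.p. injections for 14 days of Cmpd60, an inhibitor of the histone deacetylases HDAC1 and HDAC2, at 22.5 mg/kg, or of its vehicle of DMSO, PEG400 and saline. These aged mice gave 5 Cmpd60 and 6 vehicle hearts, 6 Cmpd60 and 5 vehicle kidneys, and 6 and 6 brains, all on regular chow and housed singly. A second cohort of 20 brains came from APPSWE-1349 mice of 6 to 7 months, a transgenic model of dementia (6 vehicle, 4 Cmpd60), and from their littermates (5 and 5), injected in the same way. The paper's account of the APPSWE mice includes an overnight fast before they were killed. Its account of the aged mice does not mention fasting, so their feeding state at death is not certain. The sources used here do not name the promoter of the transgene. Libraries are named by the number in their labels. For the kidney, the treatment field of the labels gives the opposite of the titles and source names, which were followed, and following the field instead would turn the sign of every kidney difference and take the vehicle kidney levels of the tissue comparisons from the other libraries. Library s139 of the APPSWE brains is labelled as vehicle, whereas a table of the study lists it as Cmpd60-treated. The label was kept, and the number of members called and the Pdk4 estimate of that cohort are given with both.

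Aged libraries held 23584609 to 57430113 gene counts, so that 3 counts in the smallest library amounted to 0.127 CPM, the read counts divided by library sizes scaled with the TMM method. Tissue identity followed the labels. Summed cardiomyocyte markers lay between 59813 and 71889 CPM in the hearts and at most at 292 elsewhere, proximal tubule markers between 3696 and 9474 in the kidneys and at most at 15.1 elsewhere, and neuronal markers between 4349 and 6002 in the brains and at most at 85.3 elsewhere. Kidney replicates 54 and 55, both Cmpd60, stood apart from the other kidneys. Replicate 55 had the lowest proximal tubule sum of 3696 CPM, where the other kidneys started at 6255, and replicate 54 had the highest macrophage sum of 471 CPM, where the others ended at 283. Lower proximal tubule sums were not confined to replicate 55. The Cmpd60 kidneys had a median of 7002 CPM and a maximum of 9474, and the vehicle kidneys ranged from 7265 to 9023. Kidney results are therefore given with and without these libraries, a choice made after the data were seen. In bulk tissue, fewer cells of a type and less RNA per cell cannot be told apart.

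The 250 bases before the transcription start could be read for 7 members from RefSeq on GRCm38.p6. Cpt1b and Angptl4 were not in the table used. The stretches of Pdk4 (chr6:5496279-5496528, minus strand), Ucp3 (chr7:100472741-100472990, plus strand) and Hadha (chr5:30154981-30155230, minus strand) are shown because the widest heart differences among the heart-enriched regulators, and the kidney difference without overlap, concern these genes. Capitals mark AGGTCA, the hexamer that nuclear receptors of this class bind, on either strand.
Pdk4: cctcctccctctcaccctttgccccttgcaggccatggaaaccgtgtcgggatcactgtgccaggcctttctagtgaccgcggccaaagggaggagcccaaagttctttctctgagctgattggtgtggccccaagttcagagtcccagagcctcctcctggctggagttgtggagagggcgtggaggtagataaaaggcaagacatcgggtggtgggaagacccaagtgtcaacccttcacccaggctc
Ucp3: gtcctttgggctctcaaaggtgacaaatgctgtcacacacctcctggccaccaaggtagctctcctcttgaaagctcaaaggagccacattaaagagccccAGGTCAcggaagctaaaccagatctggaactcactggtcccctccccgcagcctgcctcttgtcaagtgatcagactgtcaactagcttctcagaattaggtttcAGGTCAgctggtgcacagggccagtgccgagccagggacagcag
Hadha: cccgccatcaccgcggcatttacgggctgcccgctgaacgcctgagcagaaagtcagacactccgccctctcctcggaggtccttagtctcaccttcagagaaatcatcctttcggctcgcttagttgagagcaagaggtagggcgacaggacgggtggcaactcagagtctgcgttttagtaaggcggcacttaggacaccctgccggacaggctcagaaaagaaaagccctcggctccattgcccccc
Ucp3 held the hexamer at 2 places, starting at bases 102 and 207 of the stretch counted from its 5′ end, and Pdk4 and Hadha held none in this window. Cpt1a, Acadm and Acadvl each held 1 and Acadl none, so that 4 of 7 members had a match, against 14.0% of all 32851 promoter windows of the same length. The direct repeat AGGTCANAGGTCA, the form PPAR and RXR bind as a pair, was in 0.0335% of all windows and in none of the 7 members, and the looser AGGNCANAGGNCA in 0.338% and also in none. A match describes the letters of the window only.

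The first comparison asked how the members' levels differed between vehicle-treated tissues. In all 3 pairs of tissues, 9 of 9 members differed by edgeR's quasi-likelihood test with Benjamini-Hochberg adjustment, with the largest adjusted p of 0.0129 for Cpt1b between brain and kidney. Most genes differ between these organs, with 56.7% of 27105 tested genes called between kidney and heart, 72.1% between brain and heart and 72.5% between brain and kidney. The highest level was in heart for 7 members, and Cpt1a and Angptl4 were highest in kidney.

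Hadha, the alpha subunit of the trifunctional protein, had 2212 ± 240.0 CPM (SD, n = 6) in vehicle hearts, 285 ± 8.03 (n = 5) in kidneys and 57.6 ± 2.85 (n = 6) in brains. The kidney level was 2.96 lower than that of heart on the log2 scale (95% confidence interval -3.13 to -2.78). Acadl, the long-chain dehydrogenase, had 1569.9 ± 86.0, 427 ± 11.8 and 34.5 ± 2.46 CPM in the same order. Acadvl, its very-long-chain counterpart at the inner membrane, had 1631 ± 108, 447 ± 26.9 and 49.6 ± 3.36 CPM. Acadm, the medium-chain enzyme, was the one of these 4 with the smallest step from heart to kidney, at 1705 ± 199 against 782 ± 46.1 CPM, a log2 difference of -1.13 (95% interval -1.34 to -0.91).

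Cpt1a, the liver-type entry enzyme, ran the other way. Vehicle kidneys held 635 ± 61.4 CPM (n = 5), hearts 86.0 ± 6.91 (n = 6) and brains 29.6 ± 1.52 (n = 6), so that kidney exceeded heart by 2.88 on the log2 scale (95% interval 2.63 to 3.14). Cpt1b, the muscle-type enzyme, was measured poorly. The vehicle hearts had 51 to 111 reads of it each, which corresponded to 3.08 ± 1.05 CPM in vehicle hearts, 0.436 ± 0.193 in kidneys and 0.131 ± 0.0944 in brains, where 1 library had 0 reads. In the GENCODE vM1 annotation 2744 of its 3372 exonic bases (81.4%) are also exonic in Chkb on the same strand, and HTSeq in its default mode leaves reads that match both genes uncounted. How much of its low level that accounts for was not tested, and its level is not comparable with the other members. Acadvl overlaps Dvl2 over 1151 exonic bases on the opposite strand, which counting by read direction keeps apart.

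Among the regulators, Pdk4, the kinase that shuts the pyruvate dehydrogenase complex, had 1573 ± 547 CPM in vehicle hearts, 34.2 ± 11.7 in kidneys and 8.599 ± 0.715 in brains. Its heart level exceeded that of brain by the widest step of any member, with a log2 difference of -7.51 for brain against heart (95% interval -8.26 to -6.77). Ucp3, an uncoupling protein of muscle mitochondria, had 35.3 ± 12.2 CPM in hearts and was the one member higher in brain (3.48 ± 0.639) than in kidney (0.775 ± 0.762), by 2.22 on the log2 scale (adjusted p = 3.6e-05, edgeR). Angptl4, a secreted inhibitor of lipoprotein lipase, had 39.4 ± 4.94 CPM in kidneys, 6.42 ± 2.46 in hearts and 1.84 ± 0.359 in brains.

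Per exon length, in TPM, which divide counts by the exon length of a gene and scale every library to the same total, the order of the members differed between tissues. Vehicle hearts were led by Acadl (1489 ± 59.3 TPM), followed by Acadvl, Acadm, Pdk4 and Hadha between 1155 and 787 TPM, with overlapping ranges between each neighbour in that run. A gap of 20.7 times separated Hadha from Cpt1a (38.0 ± 1.85 TPM), and Ucp3 and Angptl4 followed at 21.4 and 3.74 TPM. In kidneys Acadm led (739 ± 26.7 TPM), Cpt1a was the fourth (410 ± 41.1, with a range overlapping that of Acadvl above it), and Pdk4 stood at 27.3 TPM, within the range of Angptl4. In brains Acadvl and Acadl shared the top with overlapping ranges (73.1 ± 3.16 and 68.0 ± 3.29 TPM), and the lowest neighbours, from Cpt1a down to Angptl4, were each separated.

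**Figure D1:**
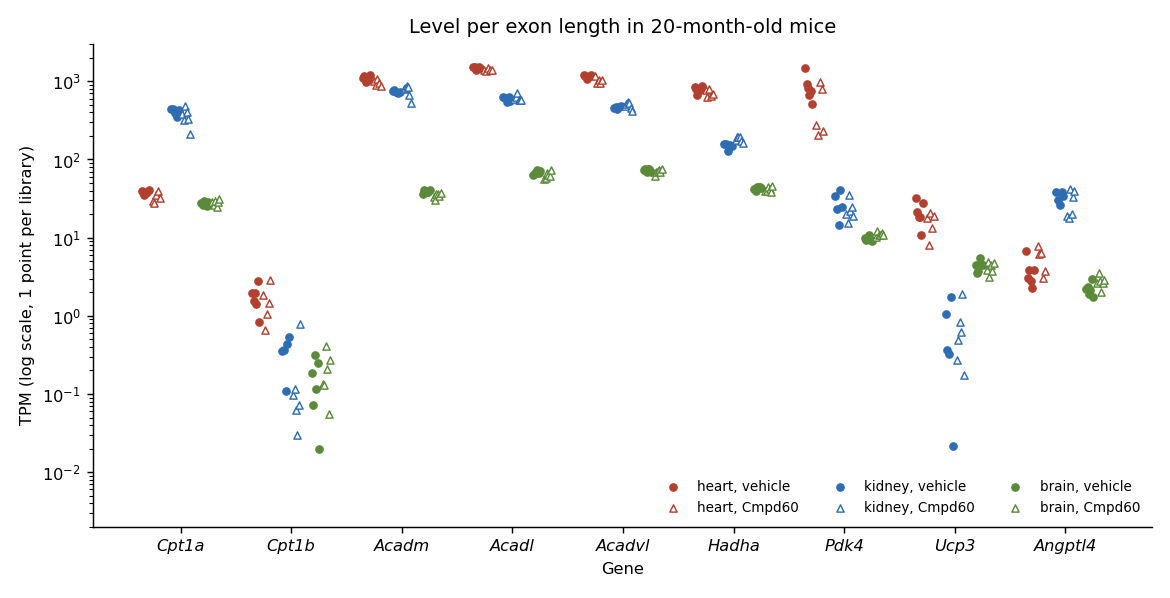
TPM of each member in each of the 34 aged libraries, on a log scale, by tissue (colour) and treatment (filled circles vehicle, open triangles Cmpd60). The 4 enzymes of the spiral and Pdk4 sit highest in heart, Cpt1a and Angptl4 highest in kidney. The brain library with 0 reads of Cpt1b is drawn at 0.02 TPM.

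The second comparison asked what 14 days of Cmpd60 did to these genes in each aged organ. In heart 0 of 9 members passed an adjusted p of 0.05 with edgeR, where 1.18% of 19452 genes did, and DESeq2 and limma-voom also called 0. Without adjustment 4 members, Acadvl, Cpt1a, Acadm and Pdk4, had p below 0.05 and lower values with Cmpd60, while 13.5% of all genes had such a p. A negative estimate was found for 8 members, and the median over the 9 was -0.17 on the log2 scale, against -0.0014 over all genes tested, of which 50.4% were negative. The members are not independent of each other. Among the hearts Acadm, Acadl, Acadvl and Hadha varied together, with Pearson's r of centred values from 0.648 (Acadl and Acadvl) to 0.882 (Acadvl and Hadha).

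The 4 enzymes of the spiral had small estimates with narrow intervals. Acadvl read 1613, 1393, 1536, 1296 and 1476 CPM in the 5 Cmpd60 hearts and 1552 to 1809 (median 1573) in the 6 vehicle hearts. In all, 4 Cmpd60 hearts lay below every vehicle heart and 1 lay among them. The log2 fold change was -0.17 ± 0.06 (SE) with an adjusted p of 0.227 (edgeR), and the exact two-sided permutation test gave p = 0.0411, where the smallest p the design allows is 0.00216. Acadm (log2 -0.18, 95% interval -0.34 to -0.03, adjusted p = 0.275, edgeR) had 3 Cmpd60 hearts below all vehicle hearts. Hadha and Acadl had log2 estimates of -0.15 (-0.32 to 0.02) and -0.08 (-0.20 to 0.03). The lowest bound of these 4 intervals was -0.34.

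At the entry step, Cpt1a read 65.3, 65.98, 84.8, 87.4 and 74.0 CPM in the Cmpd60 hearts and 81.0 to 98.2 (median 82.7) in the vehicle hearts. In all, 3 of 5 Cmpd60 hearts were below the vehicle range and 2 were inside it, with a log2 estimate of -0.20 (95% interval -0.37 to -0.03) and an adjusted p of 0.267 (edgeR). Cpt1b gave -0.13 with an interval from -0.84 to 0.58, too wide to read a direction.

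Pdk4 spread widely within both groups. The Cmpd60 hearts 68 to 72 read 498, 396, 1883, 1414 and 430 CPM, and the vehicle hearts ranged from 1025 to 2533 with a median of 1430. Thus 3 of the treated hearts were below every vehicle heart, and the other 2 were in the middle of the vehicle range. Means were 924.2 ± 683 CPM with Cmpd60 and 1573 ± 547 with vehicle, the log2 fold change was -0.80 (95% interval -1.57 to -0.03) and the adjusted p was 0.3503 (edgeR, exact permutation p = 0.0779 before adjustment). Leaving out replicate 70 brought the estimate to -1.21 with an adjusted p of 0.0948, and leaving out vehicle replicate 62 to -0.60.

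Ucp3 read 28.9, 13.8, 35.9, 21.4 and 31.2 CPM in the same Cmpd60 hearts and 16.5 to 48.7 (median 34.3) in the vehicle hearts. Of the treated hearts, 1 was under the vehicle range and the rest overlapped it, with a log2 estimate of -0.44 (95% interval -0.96 to 0.09). Angptl4 was the one member with a positive estimate in heart. It read 13.3, 11.2, 11.5, 5.11 and 6.51 CPM with Cmpd60 and 3.63 to 10.7 (median 6.24) with vehicle, so that 3 treated hearts exceeded every vehicle heart, and the estimate was 0.56 (95% interval -0.0028 to 1.12) with an adjusted p of 0.373 (edgeR). Summed adipocyte markers spread from 1.51 to 219 CPM over the hearts, with Adipoq from 0.101 to 33.9 CPM, without separating the groups, and 6 of 6 adipocyte markers had negative estimates. Summed macrophage markers were 450 to 526 CPM with Cmpd60 and 319 to 471 with vehicle, with 5 of 5 genes positive and 4 at an unadjusted p below 0.05. Summed endothelial markers were 1119.6 to 1479 CPM with Cmpd60 and 1044 to 1126 with vehicle, with 6 of 6 positive and 3 at such a p. Summed cardiomyocyte markers overlapped, at 59813 to 68176 CPM with Cmpd60 and 61431 to 71889 with vehicle. Of these 7 markers, 3 had positive and 4 negative estimates (median -0.07). Of the negative ones, 1 passed an adjusted p of 0.05 (edgeR), where 0.422% of all genes were called lower. Their part in these values was not tested.

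**Figure D2:**
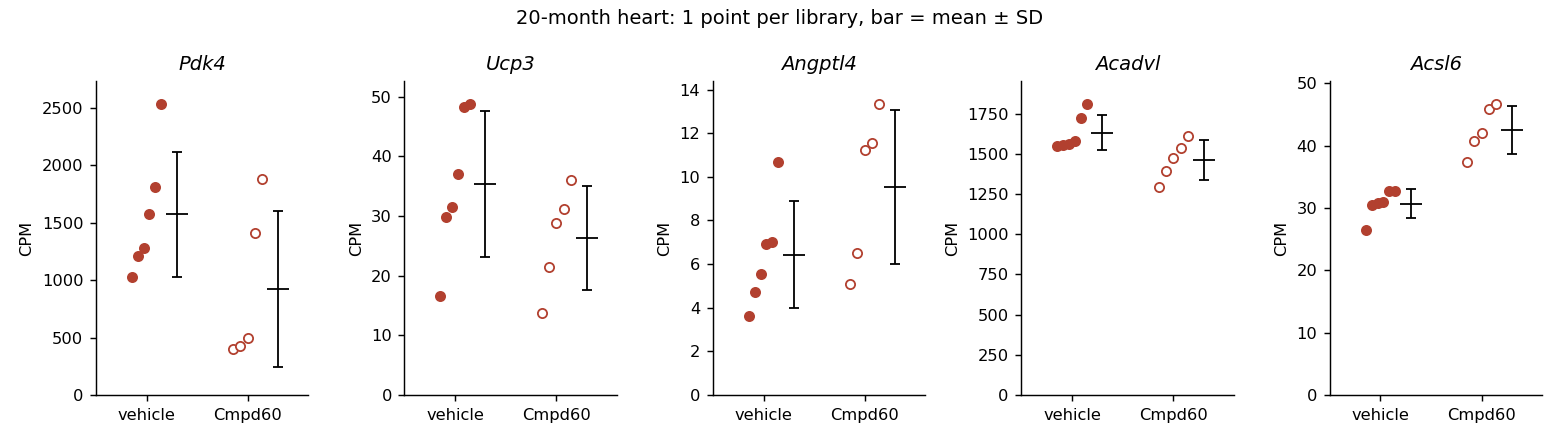
CPM in the 20-month hearts, 6 vehicle (filled) and 5 Cmpd60 (open) libraries, with mean and SD beside them. Pdk4 splits the treated hearts into 3 between 396 and 498 CPM and 2 at 1414 and 1883 CPM, while Acsl6, a pathway gene that passed the test, lies above the vehicle range in all 5.

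In kidney 0 of 9 members passed with edgeR, where 0.3% of 20698 genes did, and limma-voom also called 0. DESeq2 called 1, Hadha, but it called 429 genes in all, against 62 with edgeR. Without adjustment Hadha alone had p below 0.05, against 11.3% of all genes, and the median estimate over the members was 0.01 on the log2 scale.

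Hadha read 375, 379, 365, 353, 304 and 304 CPM in the Cmpd60 kidneys 50 to 55, that is from 304 to 379 with a median of 359. The vehicle kidneys 45 to 49 read 286, 287, 271, 289 and 291 CPM. The groups did not overlap, as was true of 2.31% of the genes tested, and the means were 347 ± 34.4 (n = 6) and 285 ± 8.03 (n = 5). The log2 fold change was 0.28 (95% interval 0.09 to 0.47) with an adjusted p of 0.227 by edgeR, 0.0228 by DESeq2, and a permutation p of 0.00649 by the exact two-sided test. The lowest 2 treated kidneys were replicates 54 and 55, and without them the estimate was 0.37 with an adjusted p of 0.0281 (edgeR). Over the runs that left out 1 kidney at a time, the adjusted p ranged from 0.0902 to 0.463.

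The other enzymes of the spiral had log2 estimates in kidney of 0.02 for Acadm (95% interval -0.27 to 0.31), 0.03 for Acadl (-0.16 to 0.22) and 0.07 for Acadvl (-0.14 to 0.27). Acadm ranged from 853 to 932 CPM in Cmpd60 kidneys 50 to 53 and from 738 to 852 in the vehicle kidneys, while replicates 54 and 55 read 649.8 and 546 CPM. So 4 treated kidneys lay above every vehicle kidney and 2 below. Without replicates 54 and 55 the estimates were 0.19 for Acadm (adjusted p = 0.283, edgeR), 0.096 for Acadl and 0.16 for Acadvl. Cpt1a read 640, 498, 721, 597, 477 and 323 CPM with Cmpd60 and 527 to 674 (median 659) with vehicle. Its lowest value was in replicate 55, the library with the lowest proximal tubule markers, and its log2 estimate moved from -0.23 (95% interval -0.58 to 0.12) to -0.05 without replicates 54 and 55. Of the 6 proximal tubule markers, 5 had negative estimates over all kidneys and 1 a positive one (median -0.27). Of the negative ones, 2 had an unadjusted p below 0.05 (edgeR). The part of these cells in the kidney estimates was not tested. Cpt1b, at under 1 CPM in every kidney, gave -0.92 with an interval from -2.50 to 0.66. Replicate 55 read 0.922 CPM of it where the other treated kidneys had 0.0352 to 0.142, and the estimate was -2.19 without that library and -2.15 without both (adjusted p = 0.137, edgeR).

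Of the regulators, Pdk4 ranged over 19.8 to 43.7 CPM with Cmpd60 and 19.8 to 50.6 with vehicle, and Angptl4 over 21.3 to 48.1 and 34.0 to 44.5. Both overlapped widely, at log2 estimates of -0.27 (95% interval -0.74 to 0.20) and -0.25 (-0.68 to 0.18), and at -0.22 and -0.43 without replicates 54 and 55. Ucp3 was near the detection limit, at 1 to 73 reads per kidney, and its values of 0.0250 to 1.97 CPM varied within both groups. Its log2 estimate was 0.01 (95% interval -1.53 to 1.56) and -0.31 without replicates 54 and 55. The kidneys highest in Ucp3, Cmpd60 replicate 54 (1.97 CPM) and vehicle replicate 48 (1.94 CPM), were also those highest in summed brown adipocyte markers such as Ucp1 and Cidea, at 38.6 and 50.5 CPM, where the kidneys started at 0.809. Over the 11 kidneys Pearson's r between both log2 values was 0.669 (permutation p = 0.0226, adjusted over 8 relations 0.181) and Spearman's rho 0.682 (permutation p = 0.0255, adjusted 0.102). Leaving out the 2 kidneys farthest from the median log2 marker sum, in either direction, gave r = 0.788 over 9. Those 2 need not be replicates 54 and 48. Pdk4 gave r = 0.6 (permutation p = 0.0532, adjusted 0.213) and rho = 0.709 (permutation p = 0.0186, adjusted 0.102) with the same markers, and r was 0.507 over 9 kidneys. No adjusted p passed for either gene. In the 11 hearts Ucp3 gave r = 0.282 (permutation p = 0.4) and Pdk4 r = -0.0893 (permutation p = 0.792). The remaining relations were those of Cpt1b and Angptl4. Cpt1b gave r = -0.0189 in kidney (permutation p = 0.955) and 0.471 in heart (permutation p = 0.144). Angptl4 gave r = 0.307 in kidney (permutation p = 0.352) and 0.497 in heart (permutation p = 0.12). The sum was at least 36.6 CPM in vehicle and 38.9 in Cmpd60 hearts, although Ucp1 fell as low as 0 CPM. It ran from 189 to 250 CPM in vehicle and 125 to 210 in Cmpd60 brains, where Ucp1 had at most 0.337 TPM. The sum was thus not specific to brown adipocytes in these tissues, and the hearts were not a clean contrast. Among the summed markers, Zic1 had at most 0.0730 CPM in any kidney. The part of brown adipocytes in the kidney values was not tested.

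**Figure D3:**
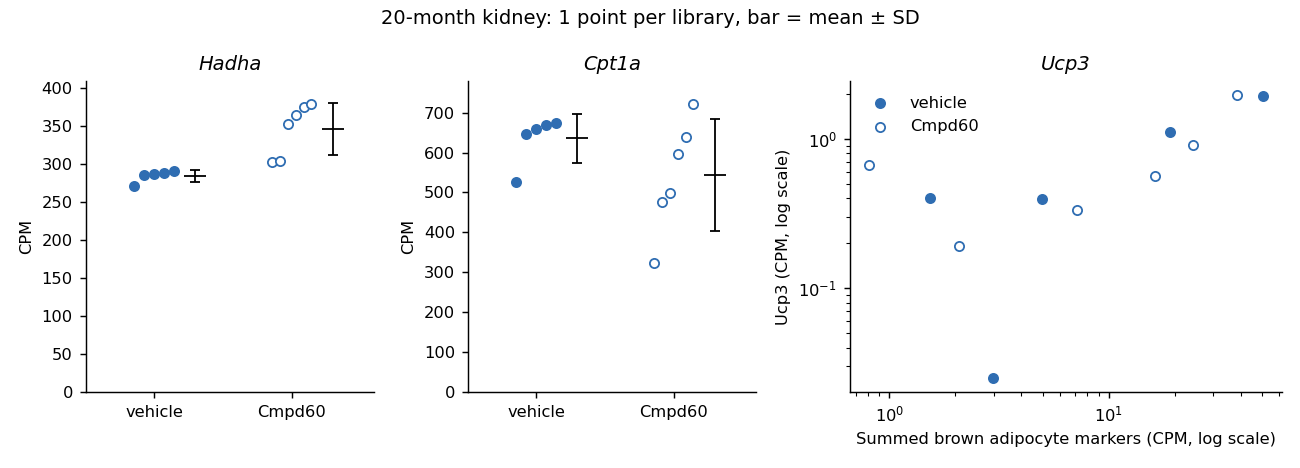
CPM of Hadha and Cpt1a in the 20-month kidneys, 5 vehicle (filled) and 6 Cmpd60 (open) libraries with mean and SD, and Ucp3 against the summed brown adipocyte markers, both on log scales. The Hadha groups do not overlap, Cpt1a overlaps, and the 2 kidneys with most Ucp3 have most brown adipocyte markers.

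In brain 0 of 9 members passed with edgeR, DESeq2 or limma-voom, where 0.0205% of 24438 genes did with edgeR. Without adjustment 3 had p below 0.05 (Pdk4 and Angptl4 higher, Acadm lower), while 13.8% of all genes did. Pdk4 read 9.34 to 11.1 CPM (median 10.2) with Cmpd60 and 8.09 to 9.98 (median 8.29) with vehicle. In all, 4 of 6 treated brains exceeded every vehicle brain, of which replicate 30 was the highest. The log2 estimate was 0.22 (95% interval 0.06 to 0.38), with an adjusted p of 0.219 (edgeR) and an exact two-sided permutation p of 0.00649.

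Angptl4 in brain read 1.73 to 3.01 CPM (median 2.37) with Cmpd60 and 1.46 to 2.42 (median 1.85) with vehicle, with 3 of 6 treated brains above the vehicle range and a log2 estimate of 0.34 (95% interval 0.01 to 0.67, adjusted p = 0.357, edgeR). Acadm read 23.1 to 29.1 CPM (median 27.2) against 26.9 to 30.8 (median 28.8), an estimate of -0.14 (95% interval -0.26 to -0.01, adjusted p = 0.318, edgeR). Hadha, Acadvl, Acadl, Ucp3 and Cpt1a had estimates between -0.07 and 0.08, and the interval of Hadha ran from -0.11 to 0.11. Cpt1b, at no more than 0.371 CPM in any brain, gave 0.45 (-0.72 to 1.62).

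**Figure D4:**
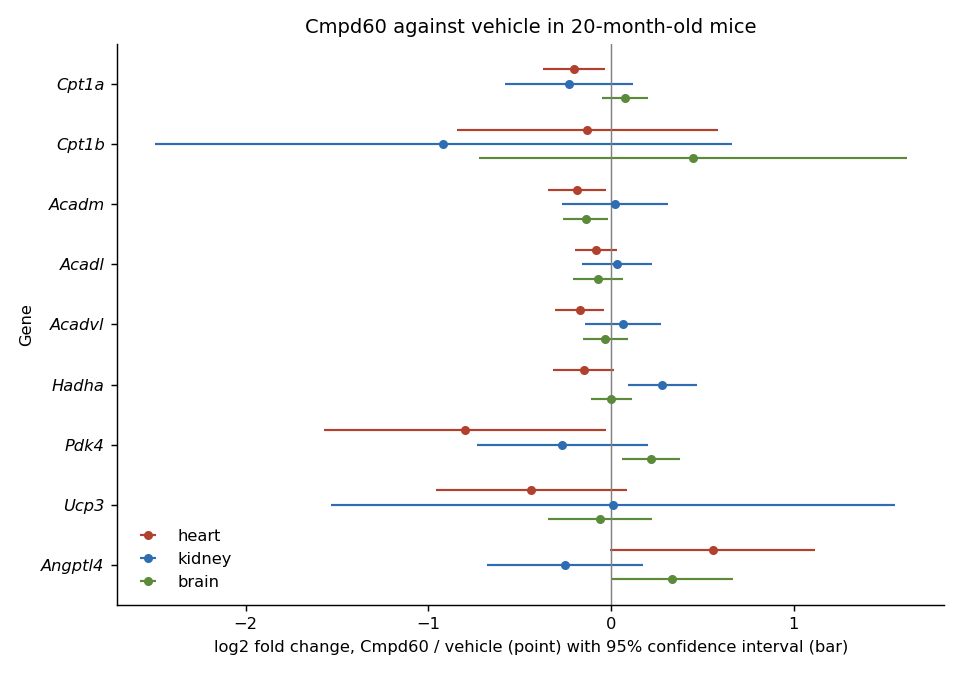
log2 fold change of each member for Cmpd60 against vehicle in heart, kidney and brain (points, edgeR) with 95% confidence intervals (bars, not adjusted for the number of genes). The widest interval belongs to Pdk4 in heart and to Cpt1b in kidney and brain, and no member passed an adjusted p of 0.05.

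Whether the organs differed in their response was tested directly in a fit of all 34 aged libraries. The paper counts fewer aged mice than these libraries, so some libraries share a mouse, but the labels do not say which. The fit treats all of them as separate mice, and it also gave the comparisons of vehicle levels above. Its p-values and intervals therefore do not account for shared mice. Between heart and kidney 0 of 9 members passed, where 0.35% of 27105 genes did. Hadha came nearest, with a response 0.42 lower in heart than in kidney on the log2 scale (95% interval -0.65 to -0.19, adjusted p = 0.0908, edgeR). With DESeq2 its adjusted p was 0.0109, without kidney replicates 54 and 55 it was 0.0247 and without heart replicate 70 it was 0.0408, each time making Hadha the 1 member called. In this comparison DESeq2 called 515 genes in all, the fit without those kidneys 134 and the reported fit 95. Angptl4 differed by 0.83 in the other direction (95% interval 0.17 to 1.49, adjusted p = 0.289, edgeR) and Acadvl by -0.22 (adjusted p = 0.410, edgeR). Between heart and brain 0 of 9 passed (0.0517% of genes did), with Pdk4 at -1.02 (95% interval -1.85 to -0.18, adjusted p = 0.444, edgeR), and between kidney and brain also 0 of 9 (0.0885% of genes did), with Hadha at 0.25 (adjusted p = 0.447, edgeR). Without adjustment, 3, 1 and 1 members had a p below 0.05 in these 3 comparisons, where 11.7%, 9.08% and 10% of all genes did.

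The rest of the pathway was read from 7 lists of 94 genes, from fatty acid uptake to PPAR cofactors, of which 92 were tested in heart. There 2 passed with edgeR, 1 higher and 1 lower, where 0.756% and 0.422% of all genes did, and none did in kidney or brain with edgeR. An unadjusted p below 0.05 was found for 24 of 92 listed genes in heart, 10 of 92 in kidney and 10 of 89 in brain, where 13.5%, 11.3% and 13.8% of all genes had such a p. Acsl6, an acyl-CoA synthetase that activates fatty acids, rose by 0.46 on the log2 scale (SE 0.08, adjusted p = 0.0157, edgeR), from 30.7 ± 2.32 to 42.5 ± 3.81 CPM. It read 46.6, 42.0, 40.8, 37.3 and 45.9 CPM in the Cmpd60 hearts and 26.4 to 32.8 (median 30.9) in the vehicle hearts, without overlap, as for 2.43% of the genes tested in heart. Pdk2, a paralog of Pdk4, fell by 0.28 (SE 0.06, adjusted p = 0.0425, edgeR), from 522 to 434 CPM.

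Without heart replicate 72 the adjusted p of Acsl6 was 0.058, and the Pdk2 call was lost in 9 of 11 such runs. In 1 fit of all 34 libraries Acsl6 stayed called and Pdk2 (adjusted p = 0.21, edgeR) did not. Of the 14 other genes of mitochondrial beta-oxidation in heart 12 had a negative estimate and 2 a positive one, with a median of -0.10. Of the negative ones, 5 had an unadjusted p below 0.05 (edgeR). In the list for the carnitine shuttle, 7 of 8 other genes were negative (median -0.11). That list also holds enzymes that make and break down malonyl-CoA, the inhibitor of carnitine palmitoyltransferase 1, so its count is not one of shuttle genes alone. The 14 genes of uptake and activation leaned the other way, with 9 positive and 5 negative estimates (median 0.09). Peroxisomal beta-oxidation had 5 positive and 9 negative ones, PPAR receptors and cofactors 7 and 8, and other PPAR targets 7 and 8. The list with paralogs of the regulators had 4 and 8. It also holds phosphatases of the pyruvate dehydrogenase complex and further acyl-CoA dehydrogenases, which are not paralogs of the regulators. In kidney the beta-oxidation and shuttle lists had 8 and 4 negative against 6 and 4 positive estimates, and in brain 8 and 3 against 6 and 5. The median over all genes was between -0.0014 and 0.0072 in the 3 organs, and these counts describe the lists only.

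**Figure D5:**
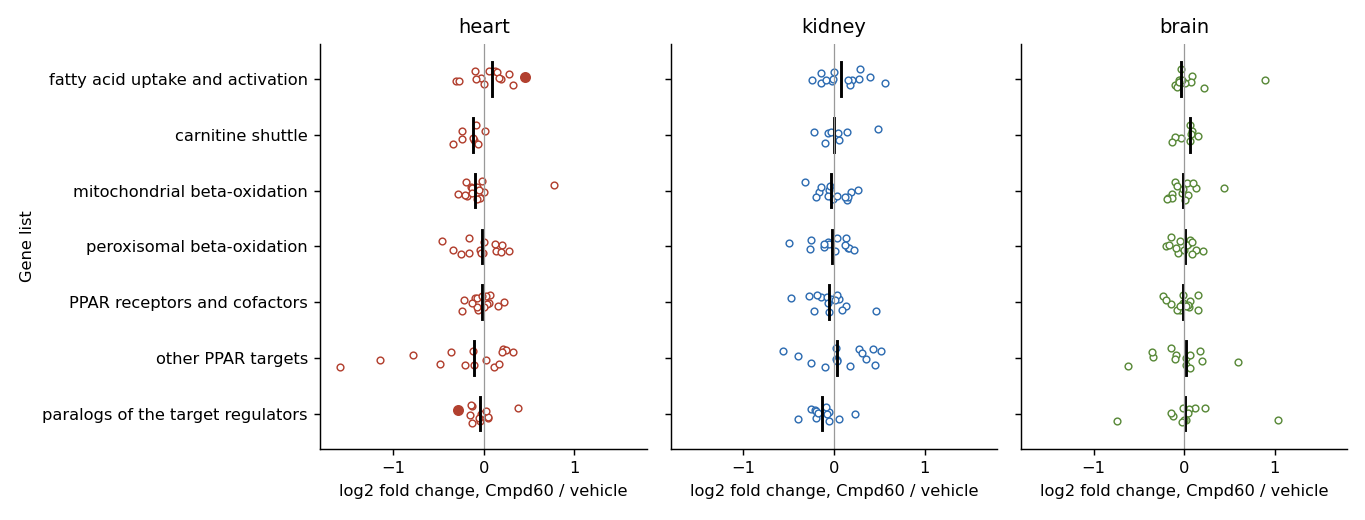
log2 fold change for Cmpd60 against vehicle of the genes of 7 lists in heart, kidney and brain, 1 point per gene, with a black bar at the median. Filled points passed an adjusted p of 0.05, and these are Acsl6 and Pdk2 in heart.

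Across the 34 aged libraries, after centring log2 CPM within each tissue and treatment, the gene most like each member among 12042 was found. It was Hibadh, a valine catabolic enzyme, for Acadm (Pearson's r = 0.918), Mut, the methylmalonyl-CoA mutase, for Cpt1a (0.871), Immt, a mitochondrial inner membrane protein, for Acadvl (0.858) and Hadh, the short-chain partner of the same pathway, for Hadha (0.801). Acadl was most like Glo1 (0.751), Pdk4 most like Tacc2 (0.726), Angptl4 most like Coro2a (0.756), Ucp3 most like Kcnk3 (0.850) and Cpt1b most like Malat1 (0.787). These values share their libraries, depth and cell composition, and describe likeness only.

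In the APPSWE cohort 0 of 9 members passed with edgeR for Cmpd60 in APPSWE brains (0% of 23273 genes did), for Cmpd60 in littermates (0%) or for genotype among vehicle brains (0.00859%). DESeq2 and limma-voom also called 0 members, and the counts at an unadjusted p below 0.05 were 0, 0 and 1, the last being Acadvl, where 8.78%, 3.76% and 8.35% of all genes had such a p. The cohort was far noisier than the aged brains, with a biological coefficient of variation of 0.742 against 0.114. Pdk4 read 14.2, 8.81, 17.6 and 13.6 CPM in the 4 APPSWE brains given Cmpd60 and 2.61 to 24.0 (median 16.8) in the vehicle brains, where library s140 gave the lowest value and the next was 15.2. The log2 estimate was -0.20 (95% interval -0.93 to 0.53). Hadha read 89.0, 74.0, 76.8 and 73.5 CPM against 65.9 to 87.8 (median 71.5), with an estimate of 0.08 (-0.17 to 0.34). Angptl4 had no more than 2.94 CPM in any library of the cohort and 0 reads in 4. Counting error alone would put 0 reads at this depth below about 0.12 CPM. Libraries s155 and s152 were among these 4 and had only 15044 and 15084 genes detected. The bound of 0.12 CPM does not allow for such lower detection. With library s139 counted as Cmpd60-treated, or left out, 0 members passed as well, and the Pdk4 estimate was -0.06 and -0.16.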

How the data were processed

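Gene counts of 54 mouse libraries were used, each with 54232 Ensembl genes. The authors trimmed reads with Trimmomatic 0.32, aligned them with HISAT2 2.1.0 and counted them per gene with HTSeq 0.11.0, taking read direction into account, and deposited the counts without normalization. The genome build is not given in the sources used here. The 5 summary lines, with 15.4% to 22.1% of reads, were left out. Groups were taken from titles and source names.

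A gene entered a fit when 3 or more of its libraries had over 2 counts. Libraries were scaled by TMM, and edgeR 4.0.16 (R 4.3.3) gave the quasi-likelihood test, with p-values adjusted by Benjamini-Hochberg over every gene in the fit. The study's methods used limma-voom, which was run here as an alternative (limma 3.58.1), as was DESeq2 1.42.0. Each aged organ was fitted on its own, all 34 aged libraries together for differences between organs, and the 20 brains of the APPSWE cohort together. Confidence intervals are at 95% and use the SE and degrees of freedom of the fit. CPM were taken on the TMM scale, with 2 as the prior count for log2 values. TPM were computed from GENCODE vM1 exon lengths over 32651 genes, which held at least 97.7% of gene counts. Exact permutation tests were two-sided, and relations used 100000 permutations. The floor of 3 counts reflects counting error alone, as the sources used here name no molecular identifiers. The fits were tested on simulated data. No 2 libraries of a group agreed within sampling noise (chi-square per degree of freedom at least 4.48), and since the labels do not state that libraries of a group are separate mice, p-values measure the spread between these libraries, which may be technical.

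The text names all 9 members, the genes of the 7 pathway lists with an adjusted p below 0.05 (at most 3 in each direction per list and organ), and for each member the gene with the highest Pearson's r among genes with a mean of at least 1 CPM in every organ. The members and lists were chosen with earlier results of these data known. Of 185 listed symbols, 4 were not matched. A further listed gene is not reported here.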

Additional observations from a re-analysis of the deposited data

Results flagged for a closer look

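In 10 of 90 sets of a member within a group, 1 library lay far from the others on the log2 CPM scale by Dixon's test, where chance flags about 1 in 20 sets. Among the aged kidneys, Cpt1a was 527 CPM in vehicle replicate 48 (647 to 674 in the others), Hadha 271 CPM in vehicle replicate 47 (286 to 291) and Cpt1b 0.922 CPM in Cmpd60 replicate 55 (0.0352 to 0.142). In the aged brains Pdk4 was 9.98 CPM in vehicle replicate 30 (8.09 to 8.75).

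The other 6 were in the APPSWE cohort and concerned 3 libraries, s155, s152 and s140. With 15044, 15084 and 15555 genes detected, these had the fewest of all 54 libraries, the next having 16402. Pdk4 was 2.61 CPM in APPSWE vehicle library s140 (15.2 to 24 in the others). Littermate vehicle library s155 had 11.7 CPM of Acadm (30.9 to 34.4) and 0 CPM of Angptl4 (2.31 to 2.94). Littermate Cmpd60 library s152 had 19.8 CPM of Acadm (30 to 32.9), 0 CPM of Ucp3 (3.39 to 4.78) and 0 CPM of Angptl4 (1.84 to 2.78). The part of this lower detection in the values was not tested.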

How the results depend on the processing

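Of 751 member estimates under other tests, scalings, filters and sample choices, 735 kept their direction and their side of the threshold, 4 passed it where the reported fit did not (all Hadha) and 12 turned sign. Of 1503 estimates with 1 library left out, 1450 did not move in either way. The number of members called in kidney was 1 with DESeq2 and 1 without kidney replicates 54 and 55 (chosen after the data were seen), and 0 in every run without 1 library. For heart against kidney it was 1 with DESeq2, 1 without those kidneys and 0 to 1 without 1 library. In the other 10 comparisons the count of members called did not change under any alternative run. The sign turned in kidney for Acadm (-0.0018, limma-voom) and Ucp3 (-0.31, without kidneys 54 and 55), in brain for Hadha (-0.0013 with DESeq2, -0.0017 with its size factors, -0.0052 with at least 10 counts in 3 libraries), in response differences without those kidneys for Cpt1a (-0.14, heart against kidney) and Ucp3 (-0.27, kidney against brain), in APPSWE brain for Cpt1b (0.66), Acadl (0.0047) and Pdk4 (0.26) with limma-voom and Acadl (0.019) with library s139 as Cmpd60-treated, and for genotype in Pdk4 (-0.45, limma-voom). None of these sign changes concerned a member that passed. With 1 library left out, signs turned within -0.48 to 0.057 for Cpt1b in heart, in kidney within -0.028 to 0.11 for Acadm, -0.0082 to 0.071 for Acadl and -0.53 to 0.69 for Ucp3, and in brain within -0.057 to 0.01 for Acadvl, -0.024 to 0.022 for Hadha and -0.11 to 0.033 for Ucp3. In the response differences they turned within -0.068 to 0.018 for Acadl (heart against brain), -0.074 to 0.13 for Cpt1a and -1.14 to 0.085 for Ucp3 (heart against kidney) and -0.48 to 0.75 for Ucp3 (kidney against brain). In APPSWE brain the ranges were -1.16 to 1.14 for Cpt1b, -0.15 to 0.023 for Acadm and -0.62 to 0.60 for Ucp3. In littermates they were -0.20 to 0.042 for Cpt1a, -0.33 to 0.66 for Cpt1b, -0.14 to 0.17 for Acadm, -0.14 to 0.047 for Acadl, -0.043 to 0.16 for Pdk4, -0.53 to 0.075 for Ucp3 and -0.51 to 0.13 for Angptl4. For genotype they were -0.0023 to 0.28 for Acadm, -0.15 to 0.074 for Acadl, -0.022 to 0.37 for Pdk4 and -0.67 to 0.70 for Ucp3. The number of genes called in all moved more. It was 229 in heart (746 with DESeq2), 62 in kidney (429 with DESeq2, 94 with no filter, 552 in 1 fit of 34 libraries, 80 more without kidneys 54 and 55) and 5 in brain (401 with DESeq2, 2 with limma-voom, 102 with no filter, 0 in 1 fit of 34 libraries), and with 1 library left out 36 to 247, 20 to 131 and 1 to 372. For the response differences it was 95 (515 with DESeq2, 60 with limma-voom) between heart and kidney, 14 (176 with DESeq2) between heart and brain and 24 (260 with DESeq2, 58 with limma-voom, 73 without kidneys 54 and 55) between kidney and brain. In the APPSWE cohort DESeq2 called 13, 8 and 25 genes against 0, 0 and 2, and dropping the filter gave 9 and 2 for Cmpd60. The cause of these shifts was not tested. No paired analysis was possible because the library numbers in the labels are not shared between groups. Levels of Cpt1b throughout, of Ucp3 in kidney and of Angptl4 in brain rest on few reads, which limits their precision.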
